A study of Mus musculus with 12 samples.

Results

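Ion channel genes were taken from the deposited count table by mouse symbol. Each symbol begins with Scn, Cacna, Cacnb, Cacng, Kcn, Hcn, Trpa, Trpc, Trpm, Trpv, P2rx, Asic, Piezo or Ano, as channel names are written. Each gene held at least 30 counts over the 12 columns of the table. Of 14675 gene IDs, 99 had such a symbol and 73 of these reached 30 counts. They comprise 9 sodium channel genes (Scn), 10 calcium channel genes (Cacn), 30 potassium channel genes (Kcn), 3 pacemaker channel genes (Hcn) and 21 genes of the TRP, P2X, ASIC, Piezo and anoctamin families, called sensory channels here. The symbol is the only criterion, and 2 of the 73 encode no channel subunit. Kcnq1ot1, an antisense noncoding RNA of the Kcnq1 locus, is counted here with the potassium class. Trpc4ap, a ubiquitin ligase adaptor, is counted with the sensory class. Those just above the minimum were Kcnk3 (30 counts), Kcna4 (31) and Kcnj10 (31), and those just below it were Ano1 (29), Kcnh2 (29) and Kcns3 (28). Trpa1, the receptor for irritants such as mustard oil, had 21 counts and is not described further.

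The study used mice of the genotype RPL22HA+/+;Advillin-Cre+, in which Cre driven by the Advillin promoter switches on an HA-tagged ribosomal protein in sensory neurons. Their ribosomes can then be pulled down with an anti-HA antibody (the RiboTag method). Input libraries hold total RNA and IP libraries hold RNA of the pull-down, from samples labelled adult neurons of the dorsal root ganglion (DRG). All samples received AAV-shGpr151, a virus carrying a hairpin against Gpr151, a G protein-coupled receptor gene. In each fraction, 3 columns come from samples that received it alone (the shGpr151 group) and 3 from samples that received AAV-e5'UTR as well (the e5'UTR group). The 4 groups have 3 columns each. What the e5'UTR insert contains is not described in the labels, and a group without the hairpin was not analysed here. The number and age of the animals are not stated beyond "adult". The series describes cultured neurons from mice with an earlier sciatic nerve injury, whereas the sample protocol describes DRGs lysed fresh, and which of these applies is not settled here.

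Voltage-gated sodium channels carry the rising phase of the action potential, calcium channels couple depolarisation to transmitter release. Potassium channels repolarise the membrane and set its resting level, and Hcn channels pass an inward current on hyperpolarisation. Pore-forming subunits of the sodium, calcium and many potassium channels travel with auxiliary subunits that set their gating and surface delivery. In sensory neurons TRP, P2X, ASIC and Piezo channels convert heat, chemicals, ATP, acid and touch into depolarisation.

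The 3 columns of a group had almost equal totals, 975403 to 985277 counts in input and 1381220 to 1517685 in IP. Between them the spread was close to counting noise. The chi-square statistic of a gene was at the median 1.08 to 1.12 times its expectation, and 7.24% to 7.72% of genes had p under 0.05. They were therefore summed to 1 sample per group, called a pool. IP was thus compared with input over 2 pools a fraction, and the e5'UTR comparisons have no replicate check. The IP/input test does not count columns of 1 pool as replicates. The e5'UTR and interaction tests were fitted on the 12 columns, so their SE and p-values do treat columns of a pool as separate samples. Those p-values reflect the spread between columns of a pool and not between animals. Column ranges and their overlap below show counting spread only. Ion channel genes held 0.0604% to 0.103% of a pool's counts, so single columns often hold under 10 counts of a gene. A floor of 3 counts corresponds to 1.38 and 1.39 CPM in the input pools but 0.531 and 0.487 CPM in the IP pools. Levels are given as CPM of the TMM-scaled library size (a scaling by the bulk of genes) with exact Poisson 95% intervals, and differences as log2 ± SE from edgeR's quasi-likelihood test. P-values have Benjamini-Hochberg adjustment over all 11949 genes with at least 30 counts, and a gene was called at an adjusted p under 0.05. Column counts are listed in the order shGpr151 input, e5'UTR input, shGpr151 IP, e5'UTR IP. Gpr151 itself had 7, 16 and 12, then 8, 9 and 12 counts in input and 37, 37 and 34, then 34, 44 and 50 in IP. Since every group carries the hairpin, this does not check the labels.

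Sensory neuron markers were mostly higher in IP. Of 8 tested, 6 were higher in IP, among them Avil, the gene whose promoter drives Cre (log2 1.97 ± 0.18), and Thy1 (2.44 ± 0.13). Isl1 was not called (adjusted p = 0.99) and Snap25, a synaptic vesicle fusion protein, was lower (-1.16 ± 0.13). Their summed level was 3410 and 3430 CPM in the input pools and 6570 and 6830 CPM in the IP pools. Markers of other cells were present in input and had lower sums in IP, on the TMM scale, for 5 of the 6 other cell types listed. Satellite glia had 1460 and 1560 against 291 and 270 CPM, and Schwann cells 593 and 590 against 240 and 228. Macrophages had 136 and 132 against 55.0 and 69.5, fibroblasts 315 and 312 against 69.9 and 89.1, and red blood cells 2320 and 2280 against 2.30 and 3.08. Endothelial and mural markers had similar sums, 64.0 and 75.1 against 57.5 and 69.8 CPM. By count, 3 of 6 satellite glia, 4 of 6 Schwann cell and 4 of 6 macrophage markers tested were lower in IP. So were 4 of 5 fibroblast and 4 of 4 red blood cell markers, beside 30.5% of all genes. A satellite glia marker, Glul, was higher. Scaled by library total, 3 satellite glia, 3 Schwann cell, 3 macrophage, 2 fibroblast and 4 red blood cell markers were lower (19.2% of all genes). On that scale 2 satellite glia, 2 Schwann cell, 2 macrophage, 1 fibroblast and 2 endothelial or mural markers were higher (54.1% of all genes). Input therefore holds RNA of cells other than neurons. For a gene lower in IP, less RNA on tagged ribosomes and more RNA in other cells cannot be told apart, nor can fewer cells of a type and less RNA per cell. The part of these markers in each result was not tested.

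Between IP and input, ion channel genes were called about as often as any gene. Of the 73, 17 (23.3%) were higher in IP, 23 (31.5%) were lower and 33 were not called, while 26.5% of all genes tested were higher and 30.5% lower (57% called in either direction). Their median log2 IP/input was 0.05, the same as over all genes tested. All 40 called genes had the same direction in both treatments taken alone. These are the pools that gave the calls, so this is no independent check. The scaling sets the zero of this comparison. By library total, values moved up by a median of 0.88 and 37 channel genes were higher and 11 lower. Over all genes 6469 were higher and 2292 lower (54.1% and 19.2%). Directions below are therefore relative to the bulk of genes.

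**Figure D1:**
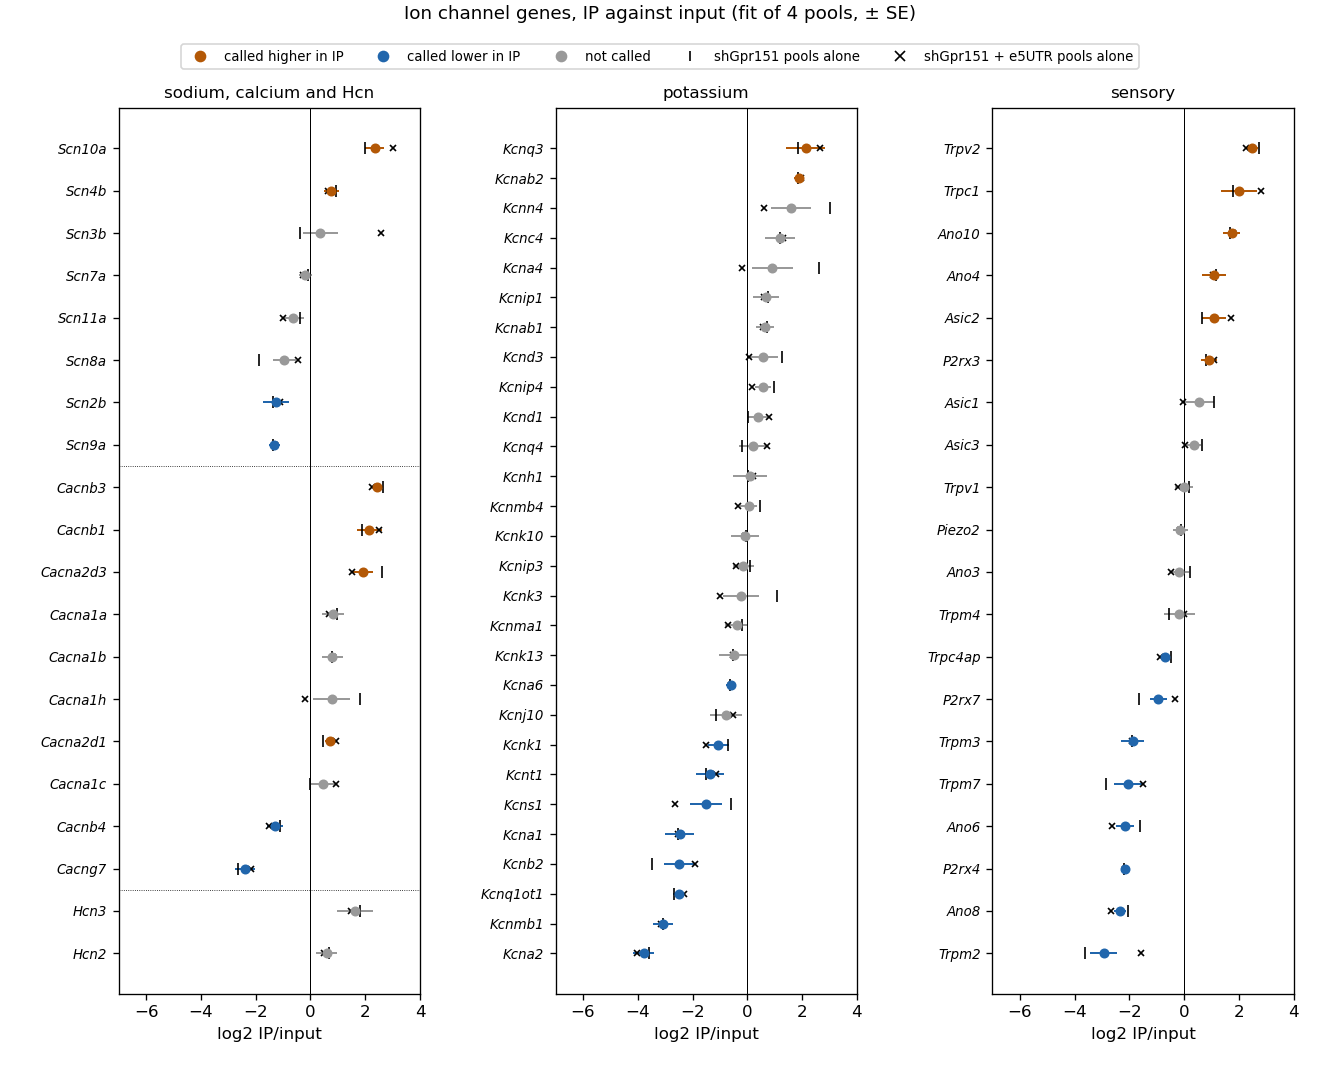
Log2 IP/input (x axis) of each of 68 of the 73 genes with its SE, from the fit of 4 pools, ordered within each class, orange where called higher in IP, blue where called lower and grey where not called. The upright tick gives the shGpr151 pools alone and the cross the e5'UTR pools alone. Values run from 2.48 for Trpv2 to -3.78 for Kcna2, and called genes lie on both sides in the sodium, calcium, potassium and sensory classes.

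Among sodium channel genes, the pore-forming subunits of nociceptors split. Scn10a, the tetrodotoxin-resistant channel of nociceptors, had 5, 5 and 4, then 2, 3 and 0 counts in input against 55, 48 and 43, then 32, 42 and 42 in IP, or 6.45 and 2.32 CPM against 25.8 and 18.8. All IP columns lay above all input columns, and Scn10a was 5.05-fold higher in IP (log2 2.34 ± 0.36, adjusted p = 8.4e-05; 3.25 without the shGpr151 input pool). Scn9a, the tetrodotoxin-sensitive channel whose loss abolishes pain in humans, had 21, 28 and 19, then 26, 20 and 25 counts in input against 19, 17 and 32, then 20, 32 and 31 in IP. In CPM all Scn9a IP columns (9.02 to 17.0) lay below all input columns (26.3 to 38.7), and it was 2.51-fold lower (log2 -1.33 ± 0.20, adjusted p = 7.1e-05). By library total the Scn9a difference was -0.45 and not called (adjusted p = 0.059). The other pore genes were not called: Scn8a, the main channel of nodes of Ranvier, at -0.96 (adjusted p = 0.064), and Scn11a, the persistent-current channel of nociceptors, at -0.64 (adjusted p = 0.18). Scn7a, the sodium-level sensor also made by glia, stood at -0.19 (adjusted p = 0.53).

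Of the auxiliary beta subunit genes, Scn4b was higher in IP and Scn2b lower. Scn4b, the subunit linked to resurgent current, had 8.29 and 13.0 CPM in input and 15.7 and 20.3 in IP, and its column ranges overlapped (log2 0.76 ± 0.27, adjusted p = 0.028). Scn2b had 6.91 and 4.17 CPM against 2.65 and 1.95 (log2 -1.26 ± 0.46, adjusted p = 0.03). The Scn4b call ended when any of 3 pools (both IP pools, the shGpr151 input pool) or 2 columns (column 1 of e5'UTR input, column 3 of shGpr151 input) was left out (0.48 to 0.93, adjusted p 0.052 to 0.25). The Scn2b call ended without the same 3 pools or any of 5 columns (columns 1 and 2 of both shGpr151 groups, column 3 of e5'UTR IP; -1.49 to -0.86, adjusted p 0.052 to 0.31) and by library total (-0.39). Scn3b was not called (0.36 ± 0.65, adjusted p = 0.66), and 8 of its 10 input counts stood in column 3 of shGpr151 input.

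Calcium channel genes had the highest share called higher among the 4 larger classes, all of it in auxiliary subunits. Cacnb3, the beta subunit that brings neuronal calcium channels to the membrane, had 4, 8 and 9, then 7, 8 and 10 counts in input against 123, 96 and 122, then 119, 113 and 110 in IP. Its levels were 9.67 and 11.6 CPM in input and 60.3 and 55.5 CPM in IP, without overlap, a 5.44-fold difference (log2 2.44 ± 0.20, adjusted p = 1.9e-07). Cacnb1, another beta subunit, had pools of 4 and 3 counts in input against 38 and 48 in IP, with ratios of 3.65 (95% interval 1.31 to 14.1) and 5.60 (1.81 to 28.1) in the 2 treatments (log2 2.15 ± 0.46, adjusted p = 0.0012).

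The alpha2delta subunits, which traffic channels to terminals and bind gabapentin in the case of Cacna2d1, were also higher in IP. Cacna2d1 had 29.5 and 26.0 CPM in input against 40.7 and 50.2 in IP (log2 0.71 ± 0.18, adjusted p = 0.0047), with 1 input column, column 3 of the shGpr151 group, at 41.5 CPM inside the IP range of 40.3 to 54.1. Cacna2d3 had 1.84 and 4.63 CPM against 11.1 and 13.3 (log2 1.91 ± 0.38, adjusted p = 0.00079). The Cacna2d3 call ended without the e5'UTR IP pool (1.84, adjusted p = 0.055), and without the e5'UTR input pool the value was 2.72. Lower in IP was Cacnb4, a beta subunit, with 13.4 and 14.4 CPM against 6.19 and 5.03 (log2 -1.30 ± 0.28, adjusted p = 0.0014; -0.42 and not called by library total). Cacng7, a gamma subunit of the family that also escorts AMPA receptors, was lower too, with 9, 10 and 10, then 10, 6 and 6 counts against 1, 3 and 8, then 5, 3 and 6 (log2 -2.40 ± 0.36, adjusted p = 6.2e-05). For Cacnb4 and Cacng7 all IP columns lay below all input columns in CPM.

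The 4 pore-forming calcium channel genes all had values above 0, and 0 were called by edgeR (0 at an unadjusted p under 0.05). Cacna1a and Cacna1b, the P/Q-type and N-type channels of transmitter release, stood at 0.83 ± 0.41 (adjusted p = 0.097) and 0.80 ± 0.38 (adjusted p = 0.084). Cacna1h, a T-type channel of low threshold, stood at 0.77 ± 0.69 (adjusted p = 0.36) and Cacna1c, an L-type channel, at 0.45 ± 0.48 (adjusted p = 0.44). Their pools held 2 to 55 counts, and all 4 were called higher by library total (1.32 to 1.71). Over the 10 calcium genes, 4 were higher and 2 lower (40.0% and 20.0%, beside 26.5% and 30.5% of all genes). Their median was 0.79, and 1.66 by library total.

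**Figure D2:**
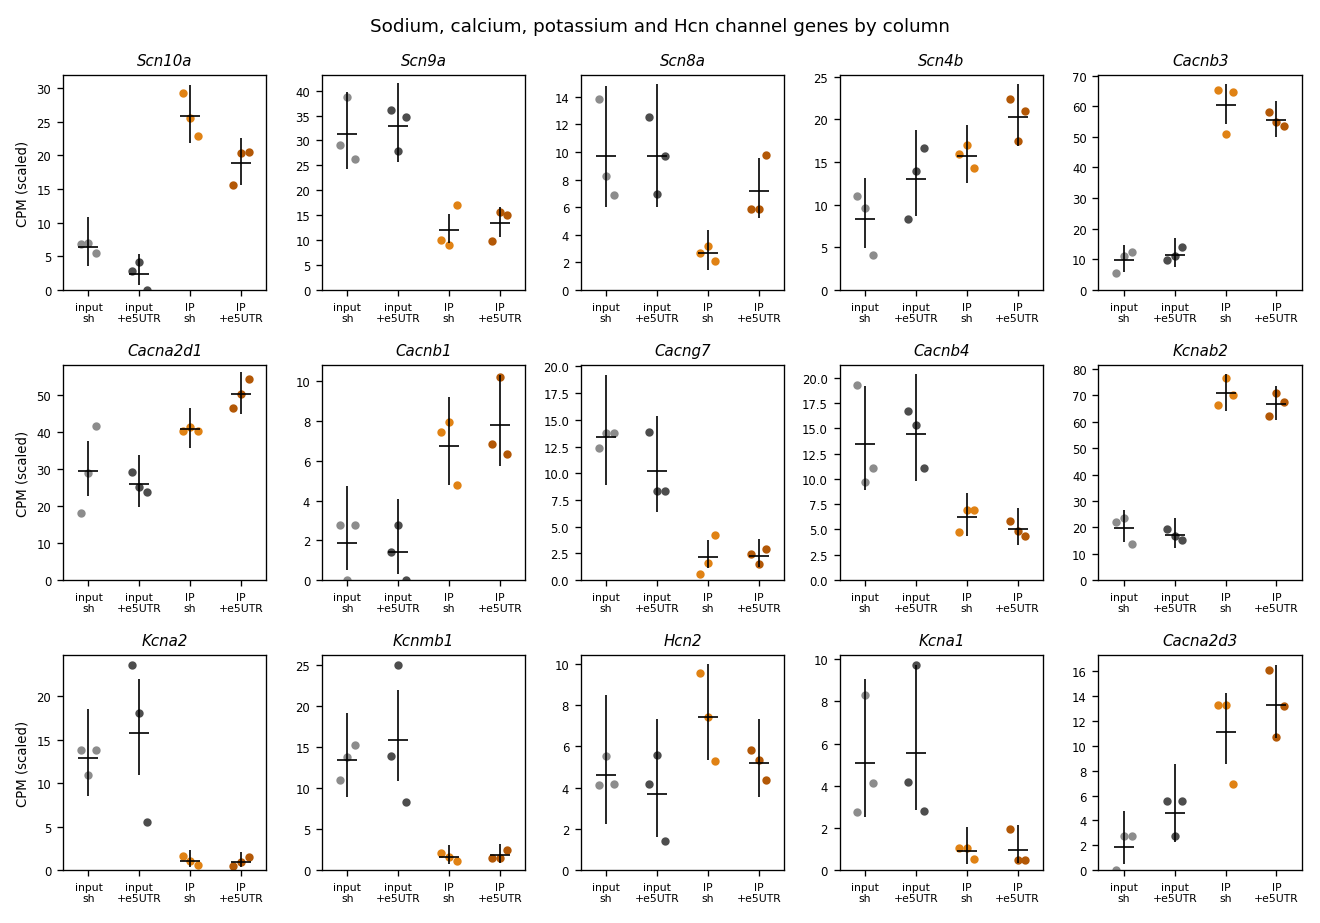
CPM of the scaled library size (y axis, from 0, a scale for each gene) in each of the 12 columns (points) for 15 sodium, calcium, potassium and Hcn channel genes, by group. The horizontal mark is the pool and the line its exact Poisson 95% interval. Cacnb3 lies at 51.0 to 65.3 CPM in the IP columns and 5.52 to 13.9 in the input columns, and Kcna2 shows the opposite order.

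Of 30 potassium channel genes, 3 were higher and 10 lower in IP, with the noncoding RNA Kcnq1ot1 among the lower. The share lower, 33.3%, stood close to the 30.5% of all genes, while 26.5% of all genes were higher. By library total the order turned, with 12 higher and 5 lower, beside 54.1% and 19.2% of all genes. The median was -0.11, and 0.76 by library total. Kcnq3, a subunit of the M-current, which restrains repetitive firing, had pools of 2 and 1 counts in input against 19 and 18 in IP, ratios of 3.65 (0.880 to 32.3) and 6.31 (0.996 to 263). Each interval includes 1, and the joint fit gave 2.13 ± 0.70 (adjusted p = 0.019). The call ended without the e5'UTR input pool (1.74, adjusted p = 0.13) or the shGpr151 IP pool (2.02, adjusted p = 0.056). Kcnab2, a beta subunit of the Shaker-type channels, had 16, 17 and 10, then 14, 12 and 11 counts against 125, 144 and 132, then 128, 146 and 138 (log2 1.90 ± 0.18, adjusted p = 5.8e-07), without overlap.

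Of the 4 Shaker-type pore genes, the family that Kcnab2 serves, 3 were lower in IP. The other, Kcna4, had pools of 1 and 4 counts in input and 16 and 10 in IP and was not called (0.92 ± 0.74, adjusted p = 0.31). Kcna2, of the juxtaparanodes of myelinated axons, had 10, 8 and 10, then 17, 13 and 4 counts in input against 3, 2 and 1, then 1, 2 and 3 in IP. Its levels were 12.9 and 15.8 CPM against 1.06 and 0.974 (log2 -3.78 ± 0.39, adjusted p = 1.7e-06). Kcna1, which assembles with Kcna2, had 2, 6 and 3, then 3, 7 and 2 counts against 2, 2 and 1, then 4, 1 and 1 (log2 -2.47 ± 0.53, adjusted p = 0.0012). All IP columns of Kcna1 and Kcna2 lay below all input columns. Kcna6, of the same family, was 1.52-fold lower (log2 -0.60 ± 0.18, adjusted p = 0.012), above 0 by library total (0.28, adjusted p = 0.17), and not called without 3 of the pools (all but e5'UTR IP) or column 1 of shGpr151 input (-0.63 to -0.49, adjusted p 0.051 to 0.076).

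Kcnb2, a Shab-type delayed rectifier, had 5, 4 and 4, then 4, 5 and 3 counts in input against 0, 1 and 2, then 1, 7 and 1 in IP, with ratios of 0.0886 (0.0162 to 0.323) and 0.263 (0.0978 to 0.679) in the 2 treatments. Its joint value was log2 -2.48 ± 0.56 (adjusted p = 0.0017; -3.42 without column 2 of e5'UTR IP, which held 7 of its 12 IP counts, and -3.29 without that pool). Kcns1, a modulatory subunit of Shab-type channels, was lower at -1.50 ± 0.59 (adjusted p = 0.043). The Kcns1 call ended without either e5'UTR pool or any of 7 columns (-1.49 to -0.89, adjusted p 0.052 to 0.25), and without the shGpr151 IP pool it was -2.31. By library total Kcns1 was not called (-0.63).

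Among the calcium-activated and sodium-activated channels, Kcnmb1, the beta subunit of large-conductance channels best known from smooth muscle, was 8.46-fold lower in IP. It had 8, 10 and 11, then 10, 18 and 6 counts against 4, 3 and 2, then 3, 3 and 5 (log2 -3.08 ± 0.35, adjusted p = 4.6e-06), without overlap in CPM. Kcnmb1 overlaps Kcnip1 in RefSeq's GRCm38.p6 annotation, and Kcnip1 had 0.68 (adjusted p = 0.25), the opposite sign. Kcnt1, a sodium-activated channel, was lower at -1.36 ± 0.52 (adjusted p = 0.038). The call was lost without any of 3 pools (all but e5'UTR input), without any of 9 columns (-1.64 to -0.85, adjusted p 0.05 to 0.38) and by library total (-0.48). Kcnk1, a tandem-pore background channel, was lower at -1.06 ± 0.38 (adjusted p = 0.03). It was not called without any of 3 pools (all but shGpr151 IP), without column 1 of either input group (-1.07 to -0.65, adjusted p 0.074 to 0.12) and by library total (-0.18). Kcnq1ot1, the noncoding RNA, had 32, 38 and 29, then 25, 23 and 24 counts against 12, 12 and 16, then 16, 5 and 21 (log2 -2.50 ± 0.23, adjusted p = 5.3e-07). Kcnq1 itself, which it overlaps on the opposite strand, was not analysed here.

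The remaining 17 potassium channel genes were not called. Besides Kcna4 they include Kcnc4 (1.21 ± 0.55, adjusted p = 0.075) and the A-type genes Kcnd1 (0.39, adjusted p = 0.36) and Kcnd3 (0.59, adjusted p = 0.38). Kcnj10, the inward rectifier of satellite glia, had 6 and 6 counts in input and 7 and 12 in IP over the pools (log2 -0.78 ± 0.58, adjusted p = 0.27). The other 12 ran from -0.50 for Kcnk13 to 1.61 for Kcnn4.

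Of the Hcn genes, pacemaker channels, Hcn2 (0.59 ± 0.39, adjusted p = 0.22) and Hcn3 (1.61 ± 0.66, adjusted p = 0.052; 2 and 2 counts in the input pools) were not called, and both were called higher by library total.

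Of the 21 sensory class genes 6 were higher in IP (28.6%, beside 26.5% of all genes). Lower were 9, the adaptor Trpc4ap among them (42.9%, beside 30.5% of all genes). Thus 71.4% were called, beside 57% of all genes, and the median was -0.18. By library total 10 were higher (47.6% beside 54.1%) and 5 lower (23.8% beside 19.2%). On that scale 71.4% were called, beside 73.3%, with a median of 0.70. Trpv2, a calcium-permeable channel of larger sensory neurons, had 5, 6 and 5, then 7, 3 and 9 counts in input against 92, 93 and 90, then 97, 92 and 71 in IP. Its levels were 7.37 and 8.81 CPM against 48.6 and 42.2, with no overlap. It was 5.60-fold higher (log2 2.48 ± 0.23, adjusted p = 5.1e-07).

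The capsaicin receptor Trpv1 was at the same level in both fractions on the scaled measure, with 6.91 and 6.95 CPM in input and 7.78 and 6.01 in IP (log2 -0.01 ± 0.33, adjusted p = 0.98). By library total it was 0.87 and called (adjusted p = 0.026). Its column counts were 4, 6 and 5, then 3, 6 and 6 in input and 10, 15 and 19, then 5, 15 and 17 in IP. Trpc1, a subunit that assembles with other Trpc channels, had 4 and 1 counts in the input pools against 36 and 20 in IP, ratios of 3.46 (1.24 to 13.4) and 7.01 (1.12 to 290). The joint value of Trpc1 was 2.02 ± 0.66 (adjusted p = 0.019), with 3.29 without the shGpr151 input pool and 3.04 without that group's column 1. The call ended without the e5'UTR input pool (1.36, adjusted p = 0.11) or the shGpr151 IP pool (1.46, adjusted p = 0.17).

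All 3 called Trpm genes were lower in IP. Trpm2, a calcium-permeable channel opened by oxidative stress and heat, had 52, 24 and 22, then 7, 10 and 6 counts in input against 8, 5 and 8, then 8, 8 and 6 in IP (log2 -2.93 ± 0.49, adjusted p = 0.00019). Its input columns were uneven. The chi-square test of the 3 shGpr151 input columns gave an adjusted p of 0.041 for Trpm2, the lowest of 223 such tests over the ion channel genes, of which 7.62% had an unadjusted p under 0.05. The IP/input value of Trpm2 was -1.54 without the shGpr151 input pool and -3.62 without the e5'UTR input pool. The call ended without either IP pool (-2.83, adjusted p = 0.14, and -2.96, adjusted p = 0.13). Trpm3, a heat channel of nociceptors, had 7.83 and 6.02 CPM against 2.12 and 1.62 (log2 -1.88 ± 0.43, adjusted p = 0.0021). Trpm7, a channel fused to a kinase and made by most cells, had 6.45 and 5.56 CPM against 0.884 and 1.95 (log2 -2.04 ± 0.51, adjusted p = 0.0035; -2.67 without column 2 of e5'UTR IP and -2.65 without that pool). Column ranges overlapped for Trpm3 and Trpm7, and by library total neither was called (-1.0 and -1.17). Trpm4 was not called (-0.18 ± 0.57, adjusted p = 0.81).

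The P2X receptors for ATP differed by member. P2rx3, the subunit of nociceptors, had 8, 9 and 3, then 5, 4 and 4 counts in input against 26, 33 and 31, then 34, 26 and 19 in IP (log2 0.91 ± 0.29, adjusted p = 0.017), with overlapping columns. The P2rx3 call ended without any of 3 pools (all but shGpr151 input) or column 3 of shGpr151 input (0.64 to 1.12, adjusted p 0.055 to 0.17). P2rx4, abundant in macrophages and microglia, had 91, 104 and 112, then 97, 99 and 99 counts against 61, 62 and 54, then 63, 74 and 54. That is 141 and 137 CPM in input against 31.3 and 31.0 in IP, a 4.46-fold difference without overlap (log2 -2.16 ± 0.14, adjusted p = 1.1e-08; -1.27 and still called by library total). P2rx7, of macrophages and satellite glia, had 16.6 and 11.6 CPM against 5.31 and 9.25 (log2 -0.94 ± 0.32, adjusted p = 0.023), with overlapping columns. The P2rx7 call ended without any of 3 pools (all but e5'UTR input; -1.34 to -0.61, adjusted p 0.053 to 0.18) and by library total (-0.06). Of the 6 macrophage markers tested, 4 were lower in IP (66.7%, beside 30.5% of all genes), and Lyz2 and Cd68 were not called. By library total 3 were lower and 2 higher (50.0% and 33.3%, beside 19.2% and 54.1% of all genes). The summed level of these markers went from 136 and 132 to 55.0 and 69.5 CPM on the TMM scale. Unscaled, they held 295 and 284 of 2954427 and 2928926 counts in the input pools. In the IP pools they held 311 and 428 of 4145071 and 4549204 counts. The part of macrophage RNA in the P2rx4 and P2rx7 values was not tested. P2rx4 overlaps Camkk2 in the GRCm38.p6 annotation, and Camkk2 was not called (0.87, adjusted p = 0.20).

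Among acid-sensing channels, Asic2 was higher by a small margin (1.09 ± 0.44, adjusted p = 0.047). Its call ended without any of 3 pools (all but shGpr151 input) or any of 8 columns (0.68 to 1.13, adjusted p 0.058 to 0.34). Asic3, the acid sensor of muscle and skin afferents, had 11, 6 and 8, then 9, 6 and 13 counts in input against 28, 41 and 34, then 28, 27 and 27 in IP (log2 0.36 ± 0.26, adjusted p = 0.26). Asic1 stood at 0.55 ± 0.56 (adjusted p = 0.43). Piezo2, the touch and proprioception channel, had 19, 9 and 15, then 6, 10 and 14 counts against 47, 34 and 22, then 19, 27 and 31. The Piezo2 fractions overlapped over nearly their whole range (log2 -0.14 ± 0.27, adjusted p = 0.68), and by library total the value was 0.74 and called (adjusted p = 0.022).

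Anoctamins, a family of chloride channels and lipid scramblases, again had members on both sides. Ano10 was higher, with 4.61 and 4.63 CPM in input against 14.9 and 16.1 in IP and no overlap (log2 1.74 ± 0.30, adjusted p = 0.00021). Ano4 was higher at 1.10 ± 0.43 (adjusted p = 0.044). The Ano4 call ended without any pool or any of 8 columns (0.85 to 1.25, adjusted p 0.052 to 0.20). Ano6, the scramblase of platelets and many other cells, had 12.4 and 19.9 CPM against 4.07 and 3.25 (log2 -2.14 ± 0.33, adjusted p = 7.4e-05). Ano8 had 22, 41 and 31, then 40, 36 and 25 counts against 21, 18 and 21, then 15, 10 and 20 (log2 -2.33 ± 0.22, adjusted p = 6.5e-07). All IP columns of Ano6 and Ano8 lay below all input columns in CPM. Ano3 was not called (-0.18 ± 0.35, adjusted p = 0.69). Trpc4ap, the adaptor, was lower at -0.68 ± 0.16 (adjusted p = 0.0025). It was not called without any of 3 pools (all but shGpr151 input; -0.70 to -0.49, adjusted p 0.063 to 0.089), and above 0 by library total (0.21, adjusted p = 0.26).

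**Figure D3:**
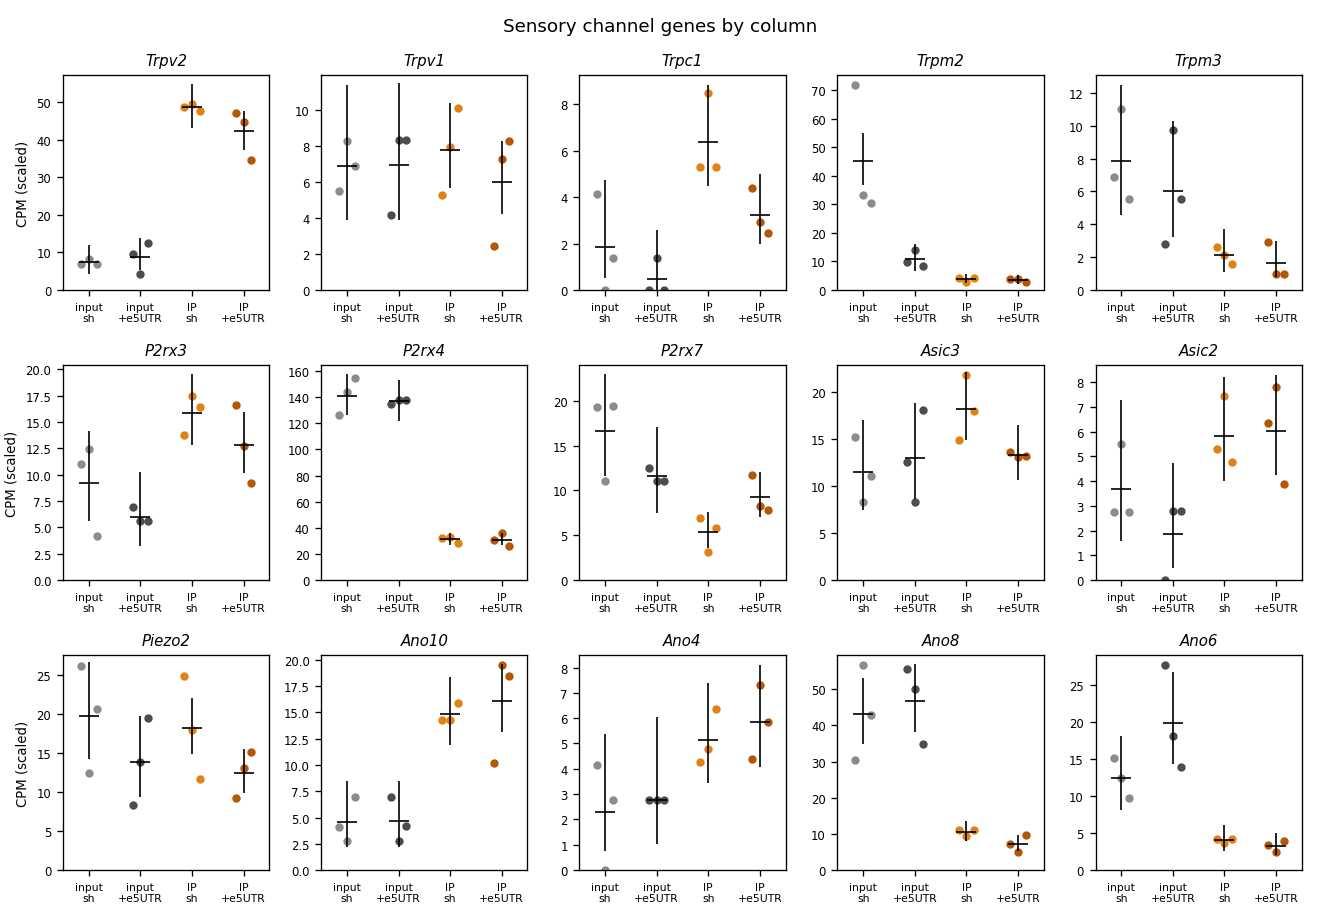
CPM of the scaled library size (y axis, from 0, a scale for each gene) in each of the 12 columns (points) for 15 sensory channel genes, by group. The horizontal mark is the pool and the line its exact Poisson 95% interval. P2rx4 input columns lie at 126 to 155 CPM and IP columns at 26.3 to 36.0, and column 1 of shGpr151 input stands at 71.8 CPM for Trpm2, above all other columns.

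Set side by side, the classes are described by their counts and medians. Differences between them were not tested, since genes are not replicates. Sodium genes had 3 higher and 2 lower of 9 (median -0.19), and calcium genes 4 and 2 of 10 (0.79). Potassium genes had 3 and 10 of 30 (-0.11), and sensory genes 6 and 9 of 21 (-0.18), against 26.5% higher and 30.5% lower over all genes. By library total the medians of these 4 classes were above 0 (0.70, 1.66, 0.76 and 0.70), beside 0.93 over all genes. Within the 2 treatments taken alone the class medians were -0.38 and -0.27 for sodium, 0.88 and 0.86 for calcium, -0.02 and -0.37 for potassium, and -0.12 and -0.21 for sensory genes. Summed over members, sensory channels had 431 and 415 CPM in the input pools against 253 and 228 in the IP pools, and calcium channels 81.0 and 80.6 against 147 and 154. Sodium channels had 93.0 and 89.0 against 102 and 100, and potassium channels 227 and 222 against 224 and 197. These sums follow the most counted genes, P2rx4 for the sensory class.

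**Figure D4:**
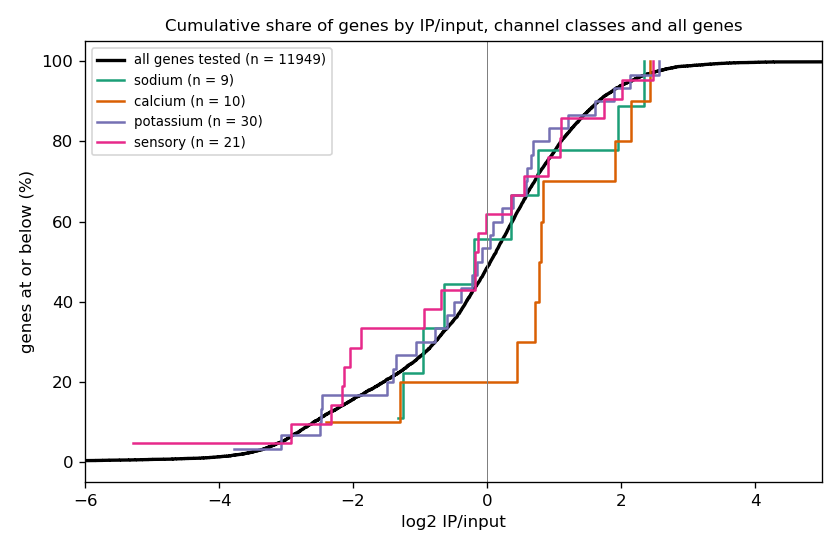
Cumulative share of genes (y axis, %) at or below a given log2 IP/input (x axis) for the 4 larger channel classes and for all 11949 genes tested (black). The sodium, potassium and sensory lines cross the black line, and the calcium line lies to its right over the middle of its range, with a median of 0.79 against 0.05.

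By role, calls in the calcium class stood in auxiliary subunits on the TMM scale, a description made after the values were seen and not tested. The counts stand beside 26.5% of all genes higher and 30.5% lower, and 54.1% and 19.2% by library total. Of the 6 calcium channel auxiliary genes 4 were higher and 2 lower, and 4 and 1 by library total. Of the 5 sodium channel pore genes 1 was higher and 1 lower, and 2 and 0 by library total. Of the 4 calcium channel pore genes 0 were called by edgeR, and all 4 were higher by library total. Among potassium channels, 14 voltage-gated pore genes, with the modulatory subunit Kcns1 counted among them, had 2 higher and 6 lower, and 6 and 3 by library total. The 5 auxiliary genes of voltage-gated potassium channels had 1 higher and 0 lower by edgeR, and 4 and 0 by library total. The 5 calcium-activated or sodium-activated genes, which include the beta subunit Kcnmb1, had 0 higher and 2 lower, and 2 and 1 by library total. The 5 tandem-pore or inward-rectifier genes had 1 lower, and 0 called by library total.

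Some of these genes share their locus with another gene. Whether counting used strand is not stated, so reads of such pairs may not be separable. In RefSeq's GRCm38.p6 annotation, 17 of the 73 overlap another protein-coding gene. Where the neighbour was tested, its value mostly differed from that of the channel gene. Rpl19, a ribosomal protein gene with 31902 counts that overlaps Cacnb1, stood at -0.23 against 2.15 for Cacnb1. Dda1, which overlaps Ano8, stood at 0.27 against -2.33. Cdk5, which overlaps Asic3, stood close to it, at 0.43 against 0.36.

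Genes that act with channels were tallied from a list of partners, anchors, pumps and transporters outside the symbol rule. Of 47 tested, 17 were higher in IP (36.2%, beside 26.5% of all genes) and 11 lower (23.4% beside 30.5%), with a median of 0.24. By library total 30 were higher (63.8% beside 54.1%) and 5 lower (10.6% beside 19.2%). Higher genes included Stac2, an adaptor that slows calcium channel inactivation (3 and 4 counts in the input pools against 100 and 83 in IP; log2 3.24 ± 0.41) and Stom, a membrane protein that modulates ASIC channels (1 and 4 against 149 and 150; 4.42 ± 0.40). Lower genes included Atp2b2, a plasma membrane calcium pump (-3.19 ± 0.19), Slc12a2, the chloride importer of sensory neurons and other cells (-2.08 ± 0.30), and Ank3, the anchor of sodium channels at the initial segment and nodes (-1.20 ± 0.16; -0.31 by library total).

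With e5'UTR added, ion channel genes in input differed for a single gene. EdgeR on the 12 columns, which compares these libraries and not the conditions, called 18 of 11949 genes (0.151%), and of the 73 channel genes called Trpm2, lower with e5'UTR. Of the 73, 3 had an unadjusted p under 0.05. Trpm2 had 52, 24 and 22 counts with shGpr151 alone and 7, 10 and 6 with e5'UTR. This is 45.1 CPM (36.6 to 55.0) against 10.7 (6.76 to 16.0), a ratio of 0.236 (0.143 to 0.375; log2 -2.09 ± 0.35, adjusted p = 0.0015). All 3 e5'UTR columns lay below all 3 shGpr151 columns, and the call ended without column 1 of shGpr151 input, which held 52 counts (-1.58, adjusted p = 0.074). In IP the counts of Trpm2 were 8, 5 and 8 against 8, 8 and 6, a ratio of 0.962 (0.504 to 1.84; log2 -0.05 ± 0.48, adjusted p = 0.98). No macrophage, glial or neuronal marker was called in this comparison, where only 0.151% of all genes were. Whether the cell make-up of the pools differed was not tested. The other 2 genes with a low unadjusted p, Scn10a (0.359, 0.101 to 1.06) and Scn3b (0.112, 0.00255 to 0.807), had 14 and 5, and 9 and 1 counts, and an adjusted p of 0.96 each.

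In IP, the same comparison called 844 genes (7.06%; 3.01% higher and 4.05% lower) and a single channel gene. Scn8a, the nodal sodium channel, had 5, 6 and 4 counts with shGpr151 alone and 12, 12 and 20 with e5'UTR. This is 2.65 against 7.14 CPM, a ratio of 2.69 (1.47 to 5.21; log2 1.40 ± 0.40, adjusted p = 0.026). Its columns did not overlap, and in input its counts were 10, 6 and 5 against 9, 5 and 7 (ratio 1.01, 0.523 to 1.94). The Scn8a call ended without column 1, 2 or 3 of shGpr151 IP (1.30, 1.45 and 1.17, adjusted p 0.12, 0.073 and 0.16) or column 3 of e5'UTR IP (1.02, adjusted p = 0.24). Thus 1.37% of channel genes were called against 7.06% of all genes. Channel genes often hold under 10 counts in a column, and whether the shares differ at equal counts was not tested. The split of all calls, 360 higher and 484 lower, moved to 187 and 650 with DESeq2 size factors, under which Scn8a was still called (1.34, adjusted p = 0.038). Without any 1 of the 6 IP columns it moved to 70 to 88 higher and 625 to 647 lower, and the median over all genes to -0.10 to -0.09.

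Among other channel genes with an unadjusted p under 0.05 in IP were Kcnma1, the large-conductance calcium-activated channel (0.470, 0.264 to 0.814), P2rx7 (1.74, 1.10 to 2.81), Scn10a (0.729, 0.567 to 0.937), Cacna2d1 (1.23, 1.04 to 1.47), Trpc1 (0.510, 0.280 to 0.905) and Kcnc4 (0.535, 0.297 to 0.942), with adjusted p of 0.12 to 0.27. Over the 73 genes 47 had a value below 0 and 26 above in IP, beside 5916 below and 6013 above of all 11949 genes. Their median was -0.19 beside 0.00 over all genes. The zero depends on the scaling, since the median over all genes was -0.06 with DESeq2 size factors and -0.10 to -0.09 without any 1 IP column. Genes are not replicates, and a shift of the channel genes as a set was not tested.

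**Figure D5:**
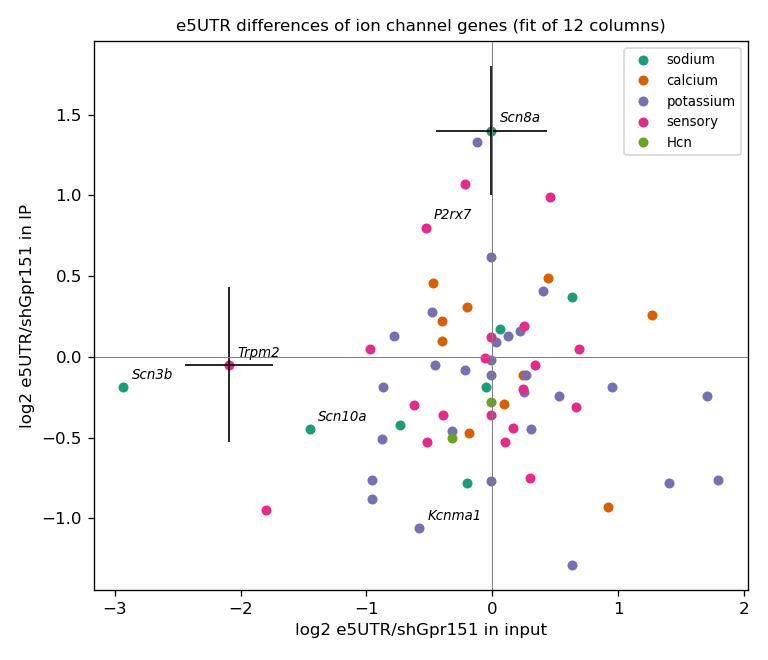
Log2 difference of the e5'UTR columns from the shGpr151 columns in input (x axis) and in IP (y axis) for 68 of the 73 genes, coloured by class, with the SE of the 2 called genes. Trpm2 lies at -2.09 in input and -0.05 in IP, and Scn8a at -0.01 and 1.40.

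The difference between the fractions in their e5'UTR response, tested as an interaction, was called for 374 of 11949 genes (3.13%). Over all genes 1.03% had a higher and 2.1% a lower response in IP, and the split of 123 and 251 calls moved to 55 and 332 with DESeq2 size factors. Without any 1 of the 6 IP columns it was 30 to 40 higher and 362 to 376 lower. EdgeR called 0 of the 73 channel genes, of which 5 had an unadjusted p under 0.05. Limma-voom also called 0, and DESeq2 gave no adjusted p for 68 of them. Trpm2 came closest (2.04 ± 0.62, adjusted p = 0.069), and was called without column 2 (adjusted p = 0.043) or column 3 (adjusted p = 0.03) of shGpr151 input. With the replicate number as a block Trpm2 was called as well (2.01, adjusted p = 0.047). It was not called without column 1 of shGpr151 input (1.53, adjusted p = 0.17). Nor was Trpm2 called without any 1 column of the other groups (adjusted p 0.062 to 0.20). Among the other 4, P2rx7 stood at 1.33 (adjusted p = 0.19) and Scn8a at 1.41 (adjusted p = 0.29). The e5'UTR comparisons within input and within IP each rest on 1 pool a group, so none of these differences has a replicate.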

How the data were processed

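RNA of input and anti-HA pull-down was sequenced from Oxford Nanopore libraries (cDNA-PCR barcoding), per the labels' protocols. The authors deposited estimated counts per Ensembl gene ID, as whole numbers, in 12 columns, each matched to a sample by name. Minimap2, Salmon and the builds GRCm39 and mm39 are named, without version or role, per the submitters' processing notes. Not given in the sources used here are annotation release, filters, strand setting and handling of ambiguous reads. The lowest total in the table was 13 counts. Symbols were found for 13191 IDs (89.9%). The 1484 without one held 11.0% of the counts. RefSeq gene positions (GRCm38.p6) served only to find overlapping genes.

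IP and input were compared with edgeR 4.0.16 (R 4.3.3) on 4 pools, the sums of a group's 3 columns. Settings were TMM (factors 0.735 to 1.364), genes with 30 or more counts in all, quasi-likelihood test, threshold 0.05. The biological coefficient of variation was 10.67%. This design counts the treatment difference as spread, and p-values reflect only how these pools vary, for which no separate animals are stated. The e5'UTR comparisons and the interaction used the 12 columns (2.547%). Ratios of pooled counts have exact Clopper-Pearson 95% intervals. Intervals and the floor of 3 counts cover counting error only, since PCR reads are not independent molecules. The code was tested on simulated data. Alternatives were limma-voom (limma 3.58.1), DESeq2 1.42.0, other scalings and filters, blocks, and leaving out each column or pool.

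The members and lists were chosen with earlier results of these data known. Genes named are, in each class, up to 6 called higher and 6 lower in IP/input by size, genes called with e5'UTR, the members among 41 well known sensory neuron channels (35, with 2 more under 30 counts), and members that encode no channel. Kcna6, Kcnk1, Kcnt1, P2rx7 and the overlapping genes fall outside the rule and were chosen after their values were seen, as were the uncalled genes named beyond the 41 and those of the partner list. Some genes that this rule names, and the median of the small Hcn class, are not reported here.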

Additional observations from a re-analysis of the deposited data

How the results depend on the processing

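Of the 40 IP/input calls, 19 held in all 25 alternatives. Among them Ano10, Cacna2d1, Cacnb1, Cacnb3, Kcnab2, Scn10a and Trpv2 were higher, and Ano6, Ano8, Cacng7, Kcna1, Kcna2, Kcnb2, Kcnmb1, Kcnq1ot1 and P2rx4 lower. Cacnb4, Scn9a, Trpm3 and Trpm7 held in all but scaling by library total. That scaling gave 37 higher and 11 lower, class medians of 0.70 (sodium), 1.66 (calcium), 0.76 (potassium) and 0.70 (sensory), and the opposite sign, above 0, for 14 of the 73 genes. Of these Kcna6 (0.28) and Trpc4ap (0.21) had been called lower, while Piezo2 (0.74), Trpv1 (0.87) and Scn7a (0.70) were now called. Of the 39 called genes with an adjusted p from DESeq2, 10 higher and 16 lower held. Kcnq3 had none, nor had Scn8a in the e5'UTR comparison within IP, so no DESeq2 count is given there. Limma-voom kept 13 and 23, and called 1 gene lower with e5'UTR in IP. Medians moved to -0.10 (sodium), 0.85 (calcium) and -0.05 (sensory) with 12 columns as samples, to 0.86 (calcium) and -0.10 (sensory) without a filter, and to 0.72 (calcium) with limma-voom. Leaving out a column or pool gave 10 to 19 higher (lowest without the shGpr151 IP pool) and 16 to 23 lower. It gave 0 to 1 lower with e5'UTR in input, and 0 to 1 in each direction in IP (lower were Piezo2 and Kcnc4 among others) and in the interaction. Medians were -0.48 to -0.02 (sodium), 0.69 to 0.90 (calcium), -0.29 to 0.08 (potassium) and -0.41 to -0.01 (sensory). Where 1 column or pool was left out the group had fewer counts. The cause of other changes was not tested. Deviations of same-numbered columns correlated at -0.364 to 0.375 over 2364 genes. Since columns of a group differ by little more than counting noise, this cannot show whether the numbers pair the samples. With the replicate number as a block on the 12 columns, medians were -0.11 (sodium), 0.85 (calcium) and -0.05 (sensory), the calls kept were 17 higher and 22 lower. Trpm2 and Scn8a kept their e5'UTR calls, and the replicate block gave 1 interaction call (Trpm2, 2.01, adjusted p = 0.047). Depth limits the precision, since many pools hold under 10 counts of a gene.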
